A study of Mus musculus with 2 samples.

Results

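The cytosolic ribosome of the mouse duodenum was examined through the transcripts of its protein genes. Members were the genes annotated as protein-coding whose symbol starts with Rpl, Rps or Rplp followed by a number, together with Rpsa, leaving out 10 Rps6k kinase genes, 6 protein-coding entries named as pseudogenes and 257 ribosomal protein entries of a pseudogene type. This gave 86 members among 43346 genes. Of these, 77 are canonical ribosomal proteins, with 43 in the large subunit, 3 in its stalk and 31 in the small subunit. The other 9 are relatives or partners that carry a ribosomal protein symbol. The libraries were 2 biological replicates of 1 group, called replicate 1 and replicate 2 after the numbers in the labels. Each came from the duodenum of C57BL/6J littermates of both sexes, adults of 8 weeks of age, without any treatment named. Both share a donor entry and differ in their tissue-sample entry, so nothing shows that the tissue came from separate animals, and every p-value below compares 2 libraries whose spread may be technical. Per the labels, polyadenylated RNA longer than 200 nucleotides, with ribosomal RNA removed, was sequenced with strand information.

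The ribosome decodes messenger RNA on its small subunit and joins amino acids on its large subunit. Most of its proteins are present in equal number in each particle, whereas the acidic stalk proteins are present as dimers and recruit the translation factors. Many ribosomal protein messages start with a run of pyrimidines, the terminal oligopyrimidine (TOP) tract, through which the mTOR pathway and the RNA-binding protein Larp1 control their translation. The lining of the duodenum renews itself quickly and secretes and absorbs continuously, so it makes much protein.

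Replicate 1 was sequenced to 44977004 expected counts and replicate 2 to 45438504. The intestinal identity was seen in all 16 enterocyte genes tested, which summed to 14118 and 34835 TPM (a level per transcript length, scaled to the same total in each library) in replicates 1 and 2. The libraries differed in what else they held. The 32 exocrine pancreas genes found summed to 105103 TPM in replicate 1 and 6448 TPM in replicate 2, with medians of 712 and 5.56 TPM. The 12 stomach genes summed to 12776 and 64.6 TPM, and the Brunner's gland pair Tff2 and Muc6 to 12156 and 26.8 TPM. Goblet cell genes summed to 10212 and 25064 TPM and T lymphocyte genes to 269.7 and 734 TPM. Zg16 is on both the pancreas and the goblet cell list, so it enters both sums and is left out of totals without pancreas genes. None of the genes of these lists was at 0 in both libraries. The part of this difference in the results below was not tested, except where a value without these genes is given. In bulk tissue, fewer cells of a type and less RNA per cell cannot be told apart.

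Coding sequences are shown here because the level of a member followed their composition. The 60 bases from the start codon are given for the 4 most abundant canonical members and then for the 4 least abundant ones, with G and C in capitals (mm10, GENCODE M21, gene positions given).
Rplp1, chr9:61913284-61914542, minus strand: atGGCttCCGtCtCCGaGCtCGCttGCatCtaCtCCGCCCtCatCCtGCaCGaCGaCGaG
Rps2, chr17:24718116-24721929, plus strand: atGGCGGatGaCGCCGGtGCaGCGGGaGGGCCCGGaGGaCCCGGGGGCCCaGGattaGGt
Rps12, chr10:23785183-23787275, minus strand: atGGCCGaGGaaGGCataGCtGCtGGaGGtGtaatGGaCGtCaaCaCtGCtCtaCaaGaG
Rpl13, chr8:123102350-123105244, plus strand: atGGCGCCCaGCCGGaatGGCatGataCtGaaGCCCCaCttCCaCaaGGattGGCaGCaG
Rps27a, chr11:29545846-29548109, minus strand: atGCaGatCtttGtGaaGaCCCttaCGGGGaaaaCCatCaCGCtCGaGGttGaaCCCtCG
Rpl21, chr5:146832890-146837032, plus strand: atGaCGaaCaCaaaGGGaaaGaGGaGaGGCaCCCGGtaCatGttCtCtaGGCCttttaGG
Rpl22, chr4:152325742-152334071, plus strand: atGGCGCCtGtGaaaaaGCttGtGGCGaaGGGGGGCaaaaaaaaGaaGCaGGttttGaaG
Rpl39, chrX:37082520-37085402, minus strand: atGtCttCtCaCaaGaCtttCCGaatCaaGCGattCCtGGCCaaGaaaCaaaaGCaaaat
G and C made up 37, 44, 32 and 35 of the 60 bases in Rplp1, Rps2, Rps12 and Rpl13, and 31, 30, 29 and 24 in Rps27a, Rpl21, Rpl22 and Rpl39. Over the whole coding sequence the GC content was 58.2%, 58.4%, 50.9% and 58.5% in the 4 abundant members and 45.9%, 50%, 48.4% and 45.1% in the 4 scarce ones.

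The members together held 4.50% of all TPM in replicate 1 and 4.28% in replicate 2 (mean 4.39% ± 0.154, SD, n = 2), against 1.93% and 1.79% of the gene counts. They are short genes with high levels per length. The stalk transcript Rplp1 alone decided the order of the libraries: without it the share was 3.23% in replicate 1 and 3.70% in replicate 2. Within the particle, the large subunit without the stalk summed to 13300 and 15633 TPM, the small subunit to 17429 and 19141 TPM, and the 3 stalk genes to 14165 and 7796 TPM in replicates 1 and 2. In TPM, the stalk sum was thus higher in replicate 1 and the sums of both subunit bodies higher in replicate 2. As a share of gene counts the large subunit had the reverse order, with 0.696% in replicate 1 and 0.684% in replicate 2. The small subunit (0.729% and 0.772%) and the stalk (0.505% and 0.328%) kept theirs. When the pancreas, stomach and Brunner's gland genes were taken out of the total, the members' share was 5.17% in replicate 1 and 4.31% in replicate 2.

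The levels of the canonical members spanned a wide range. Among the 77 canonical members the TPM ran between 5.38 for Rpl39 and 12684 for Rplp1 in replicate 1, and between 3.90 and 5736 for the same genes in replicate 2. The 10th and 90th percentiles were 18.8 and 1243 TPM in replicate 1, a ratio of 66.1, and 14.5 and 1422 TPM in replicate 2, a ratio of 98.2. The standard deviation of log2(TPM + 1) across these genes was 2.34 and 2.56. The median was 148 TPM in replicate 1 and 143 TPM in replicate 2. In replicate 1, 48 canonical members had 100 TPM or more, in replicate 2 it was 45 and in both 42, and 10 exceeded 1000 TPM in both. The 8 highest held 57.9% of the canonical TPM in replicate 1 and 51.1% in replicate 2. The order of the genes was much the same in the libraries, with a Spearman's rho of 0.964 across the 77 genes, beside 0.908 across 12076 protein-coding genes that reached 1 TPM in a library. These coefficients describe genes of the same 2 libraries and carry no test.

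**Figure D1:**
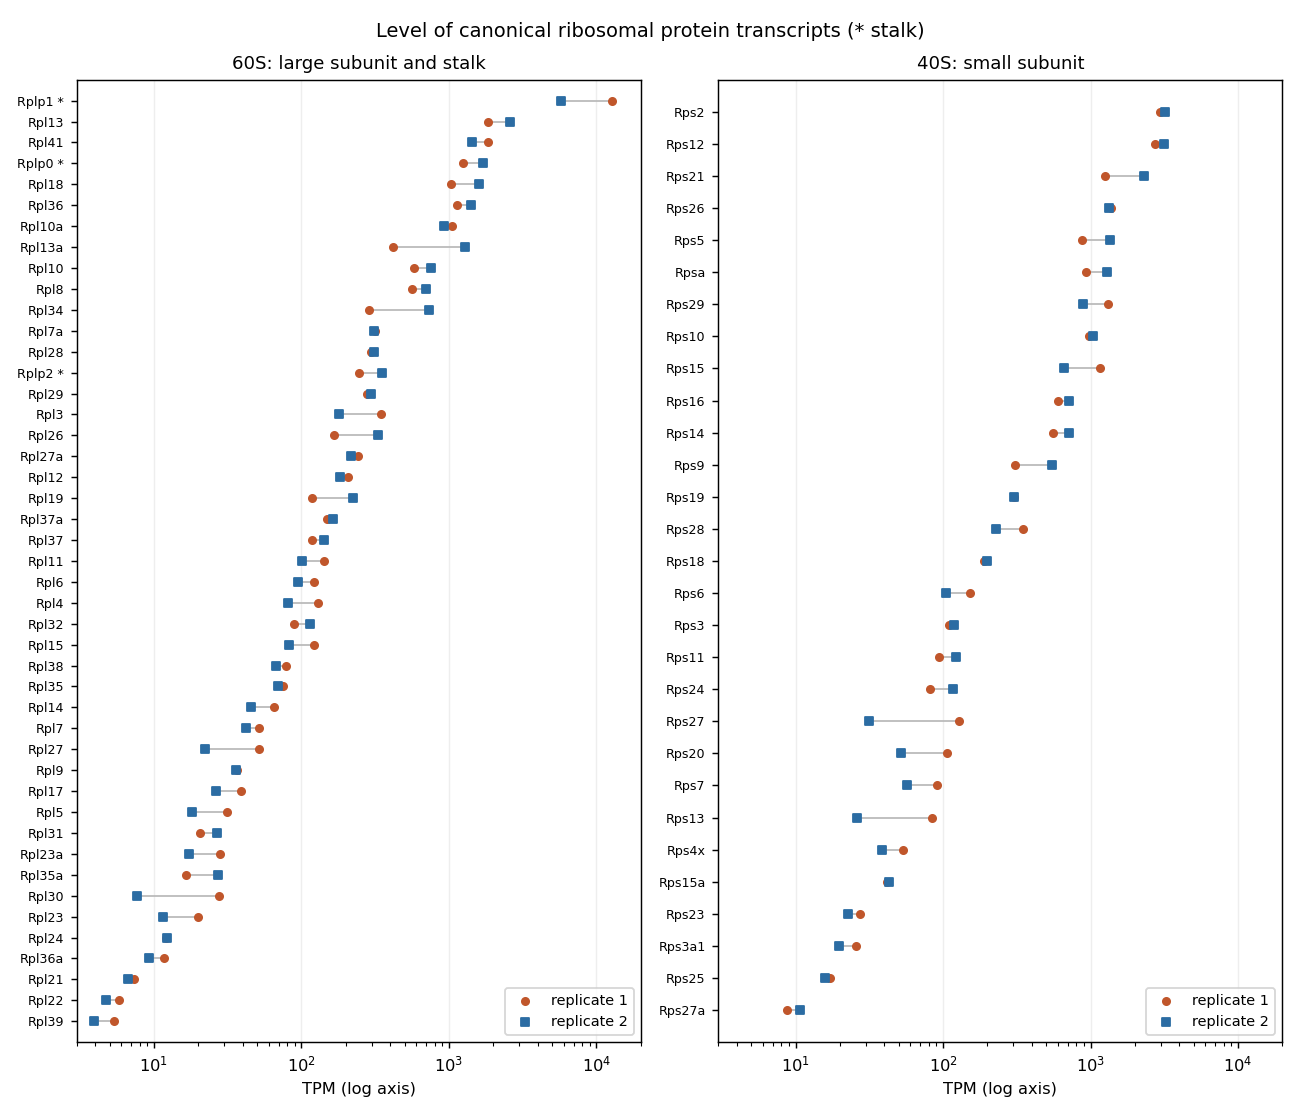
Level of canonical members in TPM (log axis), leaving out a few genes not reported here, in replicate 1 (circles) and replicate 2 (squares), ordered by the mean within the large subunit with the stalk and within the small subunit. The genes run between Rpl39 at 5.38 and 3.90 TPM and Rplp1 at 12684 and 5736 TPM in replicates 1 and 2.

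The stalk held the highest member. Rplp1, an acidic protein of the stalk tip that pairs with Rplp2, had 12684 and 5736 TPM in replicates 1 and 2 and made up 28.3% and 13.5% of the canonical TPM. It ranked 9th and 21st among all genes of the tables. Its partner Rplp2 had only 245 and 349 TPM. Rplp0, the base of the stalk that anchors both, had 1237 and 1710 TPM. The partners that assemble into the stalk thus differed widely in level in each library, and Rplp1 lay above Rplp0 and Rplp2 in both.

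In the small subunit the highest members were Rps2, a protein near the entry of the messenger RNA channel, with 2939 and 3198 TPM in replicates 1 and 2, and Rps12, a protein of the head, with 2747 and 3131 TPM. Rps21 followed with 1253 and 2313 TPM, and Rps26, which lies at the exit of the messenger RNA channel, with 1378 and 1330 TPM. At the low end were Rps25, a protein known for its role in initiation on viral entry sites, with 17.2 and 15.9 TPM, and Rps27a, which is made as a fusion with ubiquitin, with 8.71 and 10.7 TPM. Rps6, whose phosphorylation by the S6 kinases is a common readout of mTOR activity, had 152 and 105 TPM.

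In the large subunit Rpl13 had 1840 and 2605 TPM in replicates 1 and 2, and Rpl41, whose coding sequence of 75 bases is the shortest of the canonical set, had 1843 and 1441 TPM. The lowest were Rpl39, which lines the exit tunnel of the nascent chain, with 5.38 and 3.90 TPM, Rpl22 with 5.80 and 4.75 TPM, and Rpl21 with 7.35 and 6.62 TPM. Rpl36a had 11.7 and 9.25 TPM, Rpl24, part of a bridge between the subunits, had 12.1 and 12.3 TPM, and Rpl23 had 19.9 and 11.5 TPM. Rpl5 and Rpl11, which also bind the p53 regulator Mdm2, had 31.5 and 18.1 TPM and 142 and 101 TPM. The Rplp1 and Rpl39 levels differed by a factor of 2358 in replicate 1 and of 1471 in replicate 2.

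The 9 members outside the canonical set were low, except for Rps27rt, which lay above the canonical median in replicate 2. Rpl3l, a form of striated muscle, and the testis forms Rpl10l and Rpl39l had no counts in either library. A count of 0 leaves room for up to 3, or 0.0678 and 0.0671 CPM (counts scaled to a common total) in replicates 1 and 2. Rpl22l1, a paralogue of Rpl22, had 1.68 and 0.370 TPM, and Rps27l, a p53-inducible paralogue of Rps27, had 8.03 and 6.03 TPM. Rpl7l1 had 6.83 and 7.02 TPM, Rpl36al had 16.7 and 17.7 TPM, and Rps19bp1, a partner of Rps19 and of the deacetylase Sirt1 rather than a ribosomal protein, had 15.2 and 21.7 TPM. The retrogene Rps27rt had 18.3 and 163 TPM, and its reads are considered with those of Rps27 below. Together the 9 summed to 66.8 and 216 TPM.

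The level of canonical members followed the GC content of the coding sequence. Spearman's rho across the 77 genes was 0.79 in replicate 1 and 0.78 in replicate 2. It was 0.53 and 0.52 for the GC content of the whole transcript and 0.47 in each library for the third codon position alone. Coding length gave 0.08 in both libraries. Across 12069 protein-coding genes the same coefficient for coding GC was 0.26 and 0.28, across 75 mitochondrial ribosomal protein genes 0.62 in each library, and across 81 nuclear genes of the respiratory chain 0.42 and 0.46. It was 0.58 and 0.67 across 35 initiation factor genes, whereas 10 genes of the elongation factor list gave the opposite sign, -0.28 in each library. All points come from the same libraries and share their depth, and no p-value was attached. A recovery of reads that depends on GC content and the transcript levels of the tissue cannot be told apart with these files, which holds for every value set against GC content here.

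The 26 canonical members with the lowest coding GC (44.9% to 50.7%) had a median of 34.0 TPM in replicate 1 and 27.0 TPM in replicate 2. The middle 26 (50.8% to 54.6%) had 183 and 171 TPM, and the 25 with the highest (54.7% to 61.6%) had 564 and 718 TPM. Protein-coding genes in the same 3 ranges had medians of 5.67 and 4.45 TPM, 11 and 8.82 TPM, and 16.4 and 14.7 TPM. The members with the highest coding GC held 70.6% of the canonical TPM in replicate 1 and 65.4% in replicate 2, and those with the lowest 3% and 3.06%. A straight line of log2(TPM + 1) on coding GC rose by 4.63 and 5.06 log2 units per 10 percentage points. Around that line the standard deviation was 1.5 and 1.63, against 2.34 and 2.56 before.

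**Figure D2:**
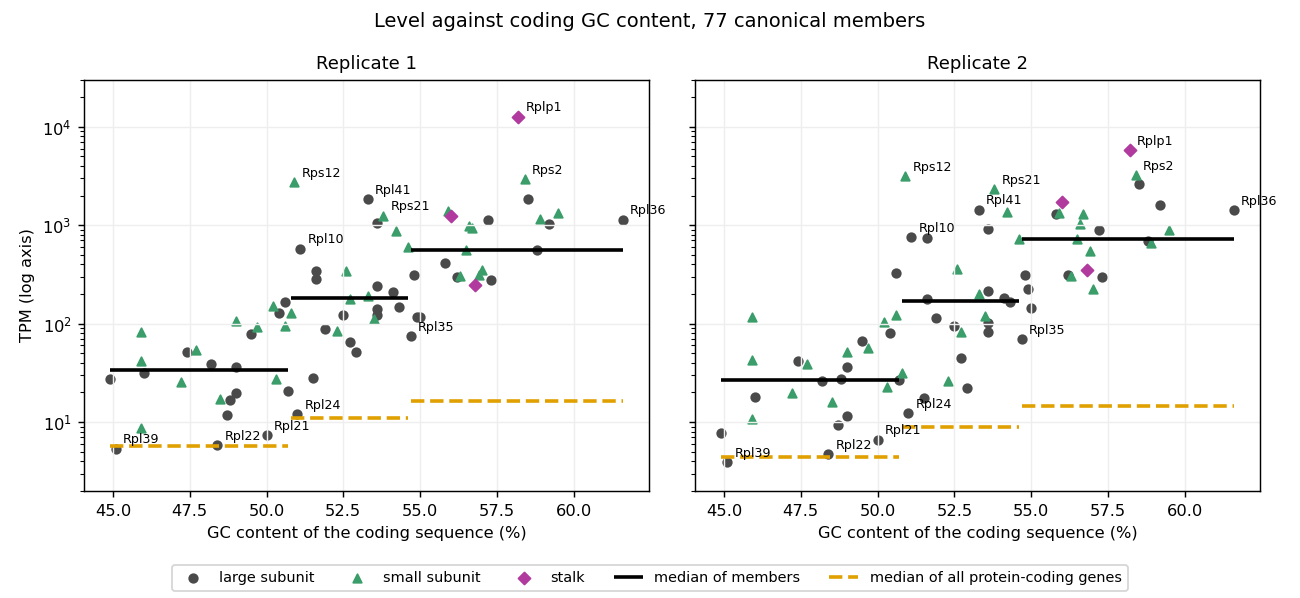
TPM (log axis) against the GC content of the coding sequence for the 77 canonical members in replicate 1 (left) and replicate 2 (right). Solid lines are the medians of the members with the lowest, middle and highest GC, which were 34.0, 183 and 564 TPM in replicate 1, and dashed lines are the medians of all protein-coding genes in the same GC ranges.

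Some members stood apart from the line in both libraries. Rps12 lay 4.90 log2 units above it in replicate 1 and 5.28 in replicate 2, and Rplp1 3.72 and 2.44. Rpl41 lay 3.18 and 2.90 units above it, Rps21 2.40 and 3.34, and Rpl10, a late-joining protein of the large subunit, 2.54 and 3.11. Below the line were Rpl21 (-3.06 and -2.97), Rpl24 (-2.86 and -2.65) and Rpl22 (-2.64 and -2.59). Across all 77 genes the distances had a Spearman's rho of 0.90 between the libraries.

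The libraries were then compared gene by gene, to see how far the members vary between replicates. A gene was called where the exact two-sided binomial test on its counts, given TMM library sizes, had a Benjamini-Hochberg adjusted p under 0.05 over 15916 genes and the scaled ratio was at least 2-fold. Of the 83 members with a mean count of at least 10, 6 were called higher in replicate 1, 4 were called higher in replicate 2 and 73 were not called. This was 12% of the members tested, against 26.1% of all genes tested, of which 14.6% were called higher in replicate 1 and 11.5% in replicate 2. The median log2 ratio, replicate 1 over replicate 2, came to -0.05 for the members (middle 50% between -0.43 and 0.40) and 0.04 for all genes tested (-0.44 to 0.50). A ratio within 1.5-fold was found for 66.3% of the members and 59.2% of all genes tested. With a 1.5-fold limit, 15 members were called higher in replicate 1 and 14 in replicate 2, against 24.1% and 21.2% of all genes tested (45.3% in either direction). Scaling by the spike-ins in place of TMM gave 8 and 2 members, against 20.1% and 7.89%. By subunit the median was 0.04 for the large, -0.12 for the small and -0.11 for the stalk.

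**Figure D3:**
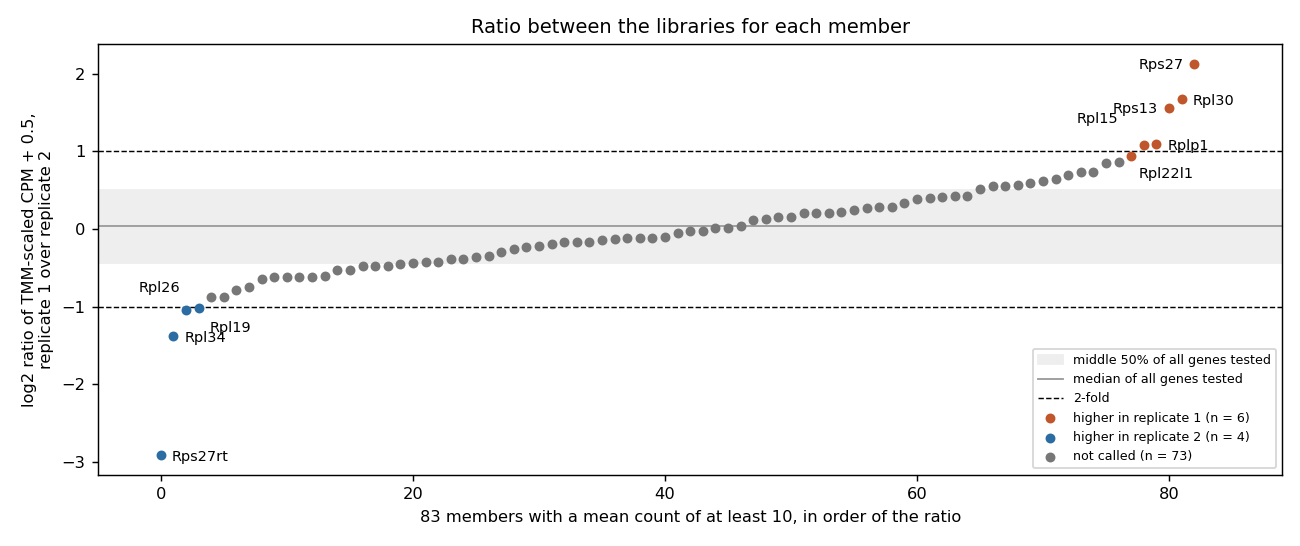
Log2 ratio, replicate 1 over replicate 2, of the 83 members with a mean count of at least 10, in order of the ratio. The 6 called higher in replicate 1 and the 4 called higher in replicate 2 are named. The shaded band is the middle 50% of all genes tested, between -0.44 and 0.50, and dashed lines mark 2-fold.

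Rplp1 was the most abundant member that was called. It had 159174 counts in replicate 1 and 64039 in replicate 2, and was 2.13-fold higher in replicate 1 (exact 95% interval 2.11 to 2.15, counting error only). Rpl30, a protein of the large subunit, had 753 and 188 counts and was 3.43-fold higher in replicate 1 (2.92 to 4.05). Rpl22l1 had 58.0 and 16 counts, with a fold of 3.11 (1.76 to 5.79) and an adjusted p of 3.45e-05 by the exact binomial test, the weakest among the called members. Its log2 ratio of 0.94 is smaller than that fold because 0.5 CPM were added to both sides. These 3 calls held under every scaling, filter and count alternative run.

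Toward replicate 2, Rpl34 had 4618 counts in replicate 1 and 10347 in replicate 2 and was 2.62-fold higher in replicate 2 (2.53 to 2.71), a call that held under the same alternatives. Rpl26, which lies at the mouth of the exit tunnel, had 2289 and 4069 counts and was 2.07-fold higher in replicate 2 (1.97 to 2.18). Rpl19, which reaches across to the small subunit, had 2716 and 4742 counts and was 2.04-fold higher in replicate 2 (1.94 to 2.14). Both sat just inside the limit, as Rpl15 did toward replicate 1, with 4921 and 1983 counts and a fold of 2.13 (2.02 to 2.24). These calls were lost on the TPM scale, with log2 ratios of -0.99 for Rpl26, -0.91 for Rpl19 and 0.54 for Rpl15, and with spike-in scaling for Rpl26 (-0.80) and Rpl19 (-0.78). Just outside the limit were Rpl13a (log2 ratio -0.88), Rps21 (-0.87) and Rpl27 (0.85). The smallest differences were those of Rps25 (0.01), Rps26 (0.02) and Rpl10a (-0.02), whose counts of 349 and 296, 14582 and 12315, and 24316 and 21148 in replicates 1 and 2 scale to nearly the same value.

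Ratios also went with composition, though weakly. Spearman's rho between coding GC and the log2 ratio was -0.23 across the canonical members and -0.17 across protein-coding genes. It was -0.21 for mitochondrial ribosomal protein genes, -0.28 for respiratory chain genes, -0.44 for initiation factor genes and -0.20 for the elongation factor list. The median log2 ratio was 0.22 for the canonical members with the lowest coding GC, 0.01 for the middle and -0.30 for the highest, beside 0.12, 0.00 and -0.08 for all genes in those ranges. Above 0 were 18 of 26, 13 of 26 and 6 of 25 members. The count of members with the highest coding GC that lay above 0 depended on the scaling. It was 12 of 25 with spike-in scaling (median -0.06, beside 0.16 for all genes in that range), 8 of 25 for TPM (-0.12, beside 0.08) and 13 of 25 for TPM without the pancreas, stomach and Brunner's gland genes (0.07, beside 0.26). In those settings the members with the lowest coding GC had medians of 0.43, 0.29 and 0.48. Spike-in scaling, and taking genes out of the TPM total, shift the ratios of all genes about equally. They therefore could not change the order of lowest over highest. Only the change to TPM could, and there the medians were 0.29 for the lowest and -0.12 for the highest. These settings were chosen for this comparison after seeing the data. Rplp1 (coding GC 58.2%) was the member of the highest range called toward replicate 1.

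Near-identical copies bear on several of these values, because a read in a shared stretch cannot be assigned to a gene. The strongest ratio in each direction belonged to such a pair, Rps27 and Rps27rt. Rps27 on chromosome 3 encodes a zinc-finger protein of the small subunit, and its retrogene Rps27rt on chromosome 9 is identical to it in 252 of 252 coding bases. Rps13 on chromosome 7 and the pseudogene Rps13-ps1 on chromosome 8 are identical in 451 of 453. The opening 60 coding bases of each show no difference within the pair.
Rps27, chr3:90212522-90213651, minus strand: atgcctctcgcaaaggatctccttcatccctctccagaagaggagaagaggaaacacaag
Rps27rt, chr9:114982366-114982739, minus strand: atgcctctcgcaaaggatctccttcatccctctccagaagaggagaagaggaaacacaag
Rps13, chr7:116331505-116334195, minus strand: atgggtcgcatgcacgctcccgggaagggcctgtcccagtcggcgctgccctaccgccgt
Rps13-ps1, chr8:87047689-87048226, plus strand: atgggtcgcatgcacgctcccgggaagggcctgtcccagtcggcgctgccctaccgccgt
The values of these pairs that follow were chosen after the ratios had been seen.

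Rps27 had 349.6 counts in replicate 1 and 52.7 in replicate 2, which is 5.69-fold higher in replicate 1 (4.23 to 7.70). Rps27rt had 136 and 1011 counts, which is 8.65-fold higher in replicate 2 (7.25 to 10.5). The 2 genes together had 486 and 1064 counts, which is 2.55-fold higher in replicate 2 (2.29 to 2.85). The sum therefore ran against the ratio listed for Rps27. The effective length of Rps27, the stretch in which a fragment could start, was only 67.0 bases in replicate 1 and 42.0 in replicate 2, so its TPM of 128 and 31.7 rests on few positions.

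Rps13 had 1361 and 383 counts in replicates 1 and 2, a fold of 3.04 toward replicate 1 (2.72 to 3.42), and Rps13-ps1 had 1446 and 2272 counts. Their sums of 2807 and 2655 gave a fold of 0.906, replicate 1 over replicate 2, with an interval of 0.859 to 0.956. When each member was summed with all pseudogenes named after it, the log2 ratio of Rps13 turned to -0.14 and its call was lost. Rpl14 moved the opposite way. Its own counts of 1998 and 1294 were not called, whereas with Rpl14-ps1 (3434 and 8247 counts, 98.9% identity) the sums of 5432 and 9541 were 2.05-fold higher in replicate 2 (1.98 to 2.12). Rpl15 with Rpl15-ps3 (identical in 612 of 612 coding bases) came to a 1.66-fold difference toward replicate 1, and Rpl19 with Rpl19-ps11 (99.8% identity) to 1.70-fold toward replicate 2. Rpl27 with Rpl27-ps3 (identical in 408 of 408) came to 1.08-fold.

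**Figure D4:**
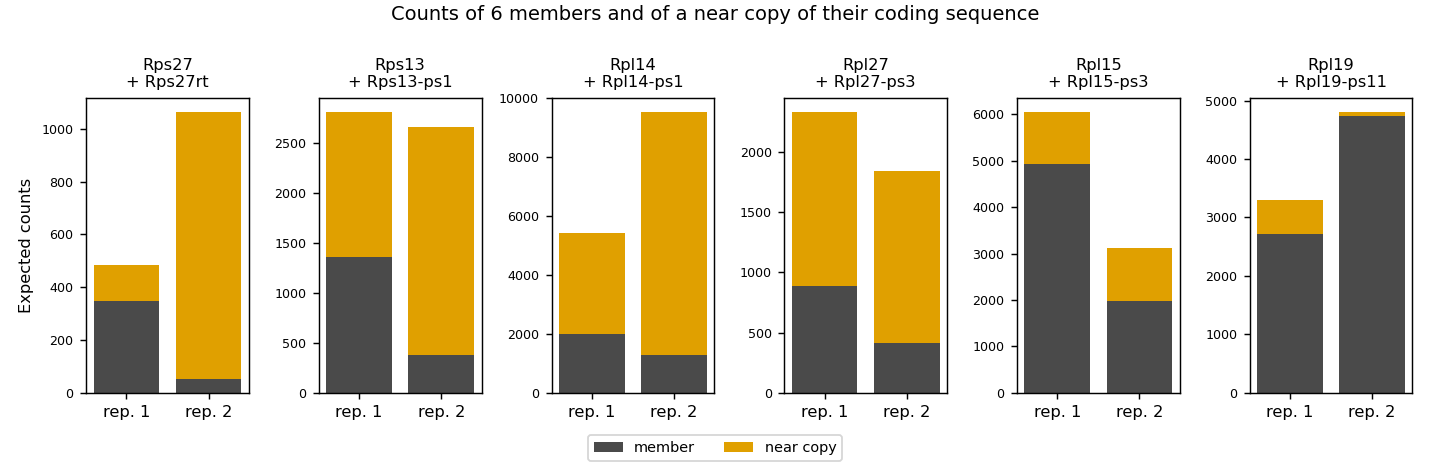
Expected counts of 6 members (dark) and of a near copy of their coding sequence (yellow) in replicate 1 (left bar) and replicate 2 (right bar). For Rps27 with Rps27rt the sum is 486 in replicate 1 and 1064 in replicate 2, although Rps27 alone has 349.6 and 52.7.

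The 263 pseudogene entries whose symbol names a ribosomal protein took 0.155% and 0.170% of the TPM in replicates 1 and 2. Of these, 177 were at 0 counts in both libraries and 41 had a mean count of at least 10. Pseudogenes under other symbols were not counted, so the shares given here may be too low. For 6 of the 56 parent genes with named pseudogenes, at least 10% of the pooled counts lay on the pseudogenes. The share was 63.2% and 86.4% for Rpl14, 61.9% and 77.7% for Rpl27, and 51.5% and 85.6% for Rps13 in replicates 1 and 2.

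The transcript tables show which forms carried the TPM. Transcripts annotated as protein-coding held 89.5% of the members' TPM in replicate 1 and 88.7% in replicate 2, and those annotated as retaining an intron 8.70% and 7.56%. Much of the second group came from Rps2, where a transcript of 637 bases with a retained intron had 2420 and 1850 TPM, or 82.3% and 57.9% of the TPM of the gene. The coding transcript of 998 bases had 400.2 and 1266 TPM. The high TPM of Rps2 therefore rests mainly on a form that is not annotated as coding. Its counts did so only in replicate 1, where the 637-base form had 44419 of 61321. In replicate 2 that form had 31070 of 72842 counts and the coding transcript of 998 bases had 39367. Rps16 was similar, with 73.5% and 70.1% of its TPM on transcripts of types other than protein-coding. Rpl12 had 82.5% and 94.3% there, and Rps6 94.1% and 94.6%.

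Between the libraries, the share of TPM on short and long transcripts differed in several members. Rpl13a, known for its release in the inflammatory control of translation, had 9211 counts in replicate 1 and 14515 in replicate 2 and was not called, with a 1.84-fold difference toward replicate 2 (1.79 to 1.89). Its TPM was 417 and 1293, a factor of 3.10. A transcript of 338 bases held 0.370% of its TPM in replicate 1 and 58.8% in replicate 2, while that of 734 bases held 71.0% and 27.9%. Neither form is in GENCODE M21, and transcripts absent from M21 held 96.0% and 98.2% of the TPM of Rpl13a. Effective lengths also differed, by a median of 25.1 bases more in replicate 1 across 27 members of equal length. How far this bears on short forms was not tested. Rps9 had 309 and 551 TPM, with a transcript of 378 bases at 1.30% and 36.5%. Rpl41 was led by its transcript of 437 bases in both libraries, at 87.9% and 65.8%, and that of 582 bases held 9.22% and 27.9%. In Rpl15 the transcript of 1922 bases had 3467 and 696 counts, whereas that of 505 bases had 434 and 443, so the call of this gene lay in its long form. The scaled counts of Rpl15 differed by more than its TPM, with log2 ratios of 1.08 and 0.54. Rplp1, Rps12 and Rpsa had only 1 transcript with reads each.

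**Figure D5:**
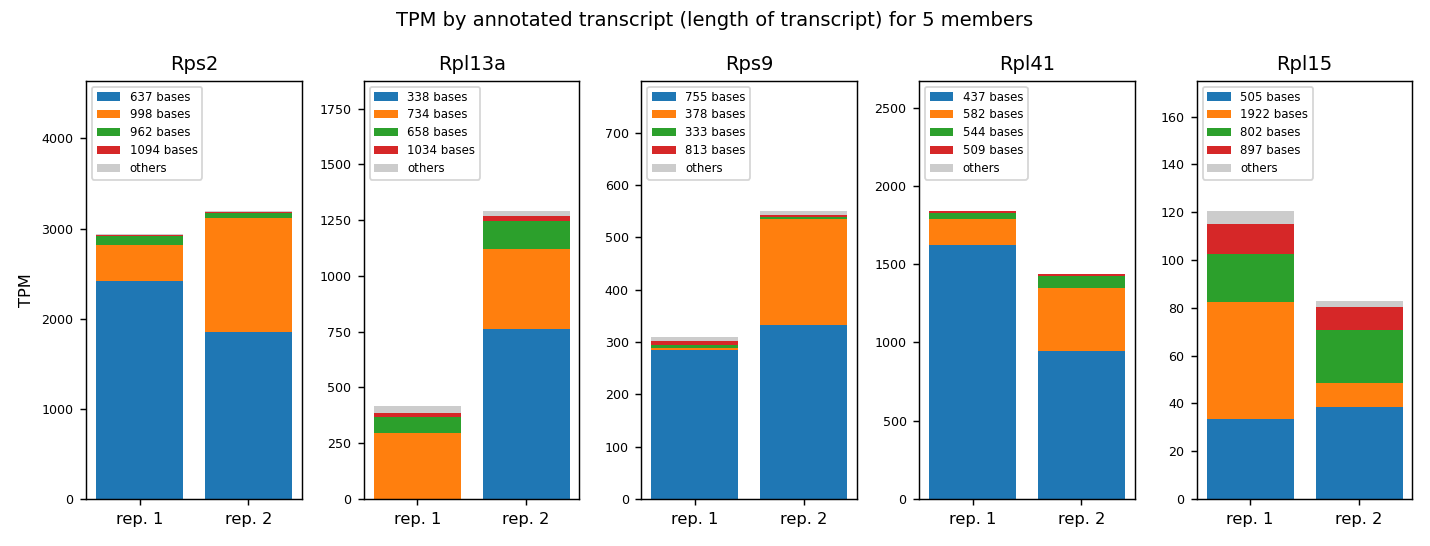
TPM of 5 members split by annotated transcript, given by its length, in replicate 1 (left bar) and replicate 2 (right bar). The transcript of 338 bases of Rpl13a, which is not in GENCODE M21, has 1.56 and 760.4 TPM in replicates 1 and 2. The 637-base transcript of Rps2 has 2420 and 1850 TPM.

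Several features shared by members were not used to choose them. They lie on 19 chromosomes, with 14 on chromosome 7. Of the 77 canonical members, 30 (39.0%) hold at least 1 small nucleolar RNA gene on the same strand within their span, 58 such genes in all, against 1.59% of 12076 protein-coding genes that reached 1 TPM in a library. Small nucleolar RNAs guide the chemical modification of ribosomal RNA. Rpl4 holds 5, and Rpl13a holds 4. The small nucleolar RNAs themselves lie below the length selected, and 1 of the 58 had at least 10 counts in replicate 1 and none in replicate 2. Hosts had a median of 125 and 121 TPM in replicates 1 and 2, and the other 47 canonical members had 152 and 198 TPM.

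A TOP tract was looked for at the annotated start in RefSeq promoter windows (GRCm38.p6), as a C at the start base followed by at least 4 bases that are each C or T, on the transcribed strand only. Windows were matched for 57 canonical members, of which 13 (22.8%) hold such a start, against 2.67% of 17492 protein-coding genes. The 20 bases before and the 10 bases from the start are shown for 5 of them, with the tract in capitals.
Rps10, chr17:27635235-27635264, minus strand: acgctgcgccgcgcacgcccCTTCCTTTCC
Rpl15, chr14:18270977-18271006, minus strand: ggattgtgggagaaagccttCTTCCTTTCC
Rps21, chr2:180257359-180257388, plus strand: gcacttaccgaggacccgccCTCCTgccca
Rplp2, chr7:141447631-141447660, plus strand: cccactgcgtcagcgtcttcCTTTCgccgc
Rps6, chr4:86857358-86857387, minus strand: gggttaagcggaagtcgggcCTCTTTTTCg
The annotated start can differ from the start used in this tissue by a few bases, so no match says only that these letters are not at that position. Members with such a start had a median of 128 and 82.9 TPM in replicates 1 and 2, and the 44 without it had 145 and 173 TPM. Rps10, with a tract over all 10 bases shown, had 979.6 and 1032 TPM.

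Ribosomal proteins whose symbols fall outside the naming rule lay among the high members. Fau, which encodes a ubiquitin-like protein fused to a small subunit protein, had 1217 and 913 TPM in replicates 1 and 2, and Rack1, a scaffold on the small subunit, had 1549 and 1635 TPM. Neither was called. Compared with the median canonical member at 148 and 143 TPM, both were higher in both libraries.

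Genes of other parts of the translation machinery were counted in the same way, beside 14.6% of all genes tested called higher in replicate 1 and 11.5% in replicate 2. None of 11 genes on the elongation factor list was called, with a median log2 ratio of 0.09. That list also holds Eef2k, Eef1e1 and Tpt1, which are not elongation factors themselves. Eef1a1, which brings aminoacyl-tRNA to the ribosome, had 604 and 803 TPM in replicates 1 and 2, Eef2, which moves the ribosome along, had 727 and 864 TPM, and Tpt1 had 1982 and 1653 TPM. Of 38 initiation factor genes, 5 were called higher in replicate 1 (Eif1ax, Eif3a, Eif4g3, Eif2s2 and Eif5b) and none in replicate 2, with a median of 0.15. Eif1ax, which helps to scan for the start codon, had 145 and 43.8 TPM. Of 17 genes acting on the nascent chain, Naca (124 and 55.5 TPM) and Srp54c (11.3 and 4.92 TPM) were called higher in replicate 1. No test of a difference between these lists was run.

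Of 93 ribosome biogenesis genes, which make ribosomal RNA and assemble the subunits, 11 were called higher in replicate 1 and 2 in replicate 2, beside 14.6% and 11.5% of all genes tested, with a median log2 ratio of 0.24. Examples are Nop58, a core protein of small nucleolar RNPs, with 11.2 and 3.18 TPM, and Nmd3, which exports the large subunit, with 35.4 and 14.3 TPM. Their levels were low, with a median of 4.16 TPM in replicate 1 and 2.98 TPM in replicate 2. The 77 mitochondrial ribosomal protein genes had 6 calls higher in replicate 1 and 4 higher in replicate 2, beside the same 14.6% and 11.5%. They had a median log2 ratio of 0.04 and median levels of 30.2 and 21.1 TPM. Mrpl52 was the highest of them in replicate 1, with 2401 TPM, and had 364 TPM in replicate 2, where Mrps24 (511 TPM) and Mrps34 (480 TPM) lay above it.

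Among 19 genes tested from the list for TOP message control, 2 were called higher in replicate 2, beside 11.5% of all genes tested. These were Eif4ebp3 (7.20 and 26.5 TPM in replicates 1 and 2) and Max (33.5 and 64.6 TPM). The list also holds Myc, Mycn and Max, which are transcription factors and not regulators of translation themselves. Larp1 had 23.6 and 18.1 TPM, and the translation repressor Eif4ebp1 had 58.8 TPM in both. A further list held 10 genes of the p53 response, which is not specific to ribosomal protein imbalance. Of these, Cdkn1a, a cell-cycle inhibitor, had 98.3 and 219 TPM, and Bbc3, which promotes apoptosis, had 25 and 48.4 TPM. Both were called higher in replicate 2, where the share over all genes tested is again 11.5%. A link to ribosomal proteins was not tested. Mdm2 had 63.5 and 64.8 TPM and was not called.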

How the data were processed

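Gene and transcript tables were deposited for each of 2 duodenum libraries. Per the labels and the text files beside the tables, the authors used mm10 and the GENCODE M4 annotation with spike-ins. Their aligner and quantifier were not given in the sources used here. Deposited expected counts are the authors' estimated fragments per gene or transcript, shared out between matching places and not normalised. The deposited TPM were scaled by the authors to effective length and to 1 total per library. Deposited isoform values give each transcript's percent of its gene's TPM, per the file headers. The tables' posterior means served as alternatives.

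Symbols, gene types, positions (1-based, mm10) and coding sequences came from GENCODE M21, with a symbol for 42462 of 43346 genes. Coding GC was taken from the most abundant complete coding transcript that M21 lists for a gene. For Rpl13a this was a transcript with only 4.04% and 1.84% of its TPM in replicates 1 and 2. M21 lists no type for transcripts with 0.935% of the members' TPM in replicate 1 and 3.03% in replicate 2. Numbered entries (at 0), ERCC spike-ins (1.35% and 1.36% of counts) and phiX (0.215% and 0.247%) stayed out of library sizes and tests.

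Library sizes came from TMM in edgeR 4.0.16 (R 4.3.3) on rounded expected counts, for genes whose mean count reached 10. With 1 group there was no test between conditions and no spread for edgeR's own test, so each gene had an exact two-sided binomial test between the libraries with Benjamini-Hochberg adjustment. On simulated data for 15916 genes with 200 changed, the procedure was tested first. Those counts were drawn without spread between replicates, as the test assumes, so this checked the working of the procedure and not the calls. In log2 ratios, replicate 1 is set over replicate 2, each as TMM-scaled CPM + 0.5. Intervals of folds are exact 95% Clopper-Pearson and cover counting error only, as does the floor of 3 counts. Reads carried no molecular identifiers.

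The members and lists were chosen with earlier results of these data known. Named members were the 8 highest and 8 lowest canonical ones, the stalk, those outside the canonical set, up to 8 called per direction with the largest ratio, and the 3 nearest the limit on each side and nearest to no difference. Other genes named were chosen after their values were seen. Alternatives were DESeq2 1.42.0 size factors, spike-in scaling, TPM ratios, other filters, pseudocounts and limits, pseudogene sums and each library alone. Computations used Python 3.11.15, numpy 2.4.6, pandas 2.3.3, scipy 1.17.1, statsmodels 0.14.6, biopython 1.88 and matplotlib 3.10.9. Junction and contig lists in mm9 were not used here. A few genes enter the counts and sums and are not reported by name here.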

Additional observations from a re-analysis of the deposited data

How the results depend on the processing

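No paired analysis was possible because the study has 1 group. The share of TPM held by the members (4.39% on average) was 4.50% in replicate 1 alone and 4.28% in replicate 2 alone. With 2 libraries, leaving 1 out only returns the value of the other, so it tests nothing about the processing. The share was 1.86% of counts, 4.74% without pancreas, stomach and Brunner's gland genes in the total, and 5.06% over protein-coding genes. With the pseudogenes named after ribosomal proteins added it was 4.55%. Without Rplp1, a setting chosen after seeing the data, it was 3.47%. The 10 called members became 29 (15 higher in replicate 1 and 14 in replicate 2) at a 1.5-fold limit, where 45.3% of all genes were called, and the 4 higher in replicate 2 became 2 with spike-in scaling, where 7.89% of all genes were called in that direction. The median log2 ratio of members (-0.05) was 0.19 with spike-in scaling, beside 0.24 for all genes tested. It was 0.03 for TPM (beside 0.15) and 0.22 for TPM without the pancreas, stomach and Brunner's gland genes (beside 0.30). With pseudogenes summed it was -0.11 (beside 0.04), and as a mean 0.00 (beside 0.05). Relative to all genes it stayed between -0.14 and -0.05 in these settings. Spike-in scaling and the change of TPM total shift all genes about equally, so they hardly test this. The spread of log2 levels (2.45) was 2.34 in replicate 1 alone and 2.56 in replicate 2 alone. It was 2.21 with a pseudocount of 10 TPM, and 1.56 around a line on coding GC, which was added after seeing the data. Summing pseudogenes turned the log2 ratio of Rps13 to -0.14. Of 231 values of 33 named members under alternatives, 215 kept their side of the limit, 10 lost a call, 5 gained one (Rpl27 and Rpl13a) and 1 reversed. Counting error limits the members with few reads, such as Rpl22l1, Rps27 in replicate 2 and Rpl39.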

Other observations

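Some ribosomal protein pseudogenes were listed at levels of canonical members. Rps12-ps3, annotated as protein-coding and 96.4% identical to Rps12 over its coding bases, had 373 TPM in replicate 1 and 366 TPM in replicate 2. Rps4l, a transcribed processed pseudogene on chromosome 6 with a symbol of its own, had 188 and 157 TPM, above the 53.8 and 38.7 TPM of Rps4x. Rpsa-ps10 had 161 and 61.7 TPM, Rps2-ps10 had 16.7 and 61.7 TPM, and Rpl37rt had 98.7 and 18.5 TPM. Reads of such entries cannot be told apart from those of their parent genes where the sequences are identical.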
